A study of Mus musculus with 17 samples.

Results

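Wnt5a and 9 genes of the Wnt/calcium pathway were followed at the RNA level in mNRPCs, mouse neural retinal progenitor cells grown from the retina of adult C57BL/6 mice. The 10 genes were chosen by symbol for their place in the pathway, as 10 of 18836 genes listed in at least 1 library. Earlier results of these data were known when these genes were chosen. They are Wnt5a, the receptor genes Ror1, Ror2 and Ryk, the phospholipase C gene Plcb4, the kinase genes Camk2d, Camk2g and Prkca, and the transcription factor genes Nfatc3 and Nfatc4. The cells had been expanded in basic medium (BM) with the growth factor bFGF and the GSK-3 inhibitor CHIR99021. Poly-A RNA was sequenced from cells in BM, in BM with bFGF (B), in BM with CHIR99021 (C) or in BM with both (BC), on days 1, 3, 5 and 7. A further library was taken on day 0, which the study describes both as cells in BM and as the state before treatment. Each treatment and day is 1 library, 17 in all, so no condition has a replicate, and whether cells of several animals were pooled is not given in the sources used here.

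WNT5A is a secreted ligand of the non-canonical Wnt branch, and does not usually act by stabilising β-catenin. Bound to Frizzled, ROR or RYK receptors it can lead, through G proteins and phospholipase C, to release of calcium from the endoplasmic reticulum. Calcium then activates CaMKII and conventional protein kinase C, and calcineurin, which sends NFAT factors into the nucleus. CHIR99021 acts on the other, canonical branch, since inhibition of GSK-3 stabilises β-catenin. RNA levels do not report the activity of any of these proteins.

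Expected counts per library summed to between 17571973 and 19428744, so depth was even. Of the progenitor markers, Pax6 (10.7 to 207 FPKM, fragments scaled by transcript length and by mapped reads), Six3 (20.4 to 62.9), Sox2 (27.7 to 89.9) and Nes (5.73 to 20.9) were present in every library. Lhx2 reached 2.35 FPKM. Rax and Six6, also retinal progenitor markers, stayed at or below 0.07 FPKM and so were close to absent here. The study itself detected RAX in mNRPCs by RT-PCR. The 5 photoreceptor markers summed to at most 1.04 FPKM. The summed level of the 7 fibroblast and mesenchyme markers, 6 of which reached 1 FPKM, ran from 257 to 550 FPKM in the cultured libraries without bFGF and from 113 to 215 with bFGF. Of these, Col3a1 reached 368 FPKM, Pdgfrb 115, Twist1 65.9, Col1a1 45.2, Dcn 9.61, Col1a2 1.78 and Lum 0.03. On day 7, Pdgfrb was at 115 FPKM in BM and 5.25 in B, whereas Twist1 was at 31.1 in BM and 46.4 in B. The 7 progenitor markers summed to 139 to 353 FPKM without bFGF and 75.7 to 202 with it. In bulk RNA, fewer cells of a type and less RNA per cell cannot be told apart. The part of these marker levels in the results that follow was not tested. The BC library of day 3 stood between the groups with and without bFGF for several members, and values without it are given where they bear on a result.

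In build GRCm38, Wnt5a spans chr14:28504543-28527448, and Camk2g lies on the same chromosome at chr14:20734873-20794157. Ror1 spans chr4:100095791-100444806, Ror2 chr13:53109317-53286124 and Ryk chr9:102834920-102908307. The remaining members are Camk2d at chr3:126595487-126846326, Prkca at chr11:107933387-108343888, Plcb4 at chr2:135658603-136014602, Nfatc3 at chr8:106058818-106130537 and Nfatc4 at chr14:55824795-55833943. Each is a protein-coding gene in RefSeq. The RefSeq promoter table of build GRCm38.p6 held 8 of the 10 genes, without Wnt5a and Camk2g. The 250 bases before an annotated transcript start are shown for both expressed receptor genes, which were lower with bFGF, for Camk2d, which was higher in the scaled counts, and for Nfatc4, itself a gene of an NFAT factor. They read 5′ to 3′ on the gene's strand, which is the plus strand for all 4, and capitals mark the NFAT core TTTCC or its reverse complement GGAAA. The start used for Ror1, Ryk and Nfatc4 is the first base of the gene, while that for Camk2d is a transcript start 1464 bases inside the gene span given above.
Ror1, chr4:100095541-100095790: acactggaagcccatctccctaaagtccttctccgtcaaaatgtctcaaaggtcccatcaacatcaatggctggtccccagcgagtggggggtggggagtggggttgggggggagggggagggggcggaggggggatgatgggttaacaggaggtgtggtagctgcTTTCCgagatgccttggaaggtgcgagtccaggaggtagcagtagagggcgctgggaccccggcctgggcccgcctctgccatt
Ryk, chr9:102834670-102834919: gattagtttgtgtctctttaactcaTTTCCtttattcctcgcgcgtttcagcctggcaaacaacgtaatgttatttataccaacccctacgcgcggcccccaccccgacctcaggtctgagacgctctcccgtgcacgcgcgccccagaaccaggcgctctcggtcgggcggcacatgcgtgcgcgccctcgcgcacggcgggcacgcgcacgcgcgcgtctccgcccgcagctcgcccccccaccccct
Camk2d, chr3:126596701-126596950: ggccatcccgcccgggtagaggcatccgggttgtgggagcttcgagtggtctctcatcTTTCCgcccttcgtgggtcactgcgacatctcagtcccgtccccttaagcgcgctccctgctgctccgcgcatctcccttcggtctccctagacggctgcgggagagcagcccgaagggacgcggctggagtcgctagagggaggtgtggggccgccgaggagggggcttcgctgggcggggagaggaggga
Nfatc4, chr14:55824545-55824794: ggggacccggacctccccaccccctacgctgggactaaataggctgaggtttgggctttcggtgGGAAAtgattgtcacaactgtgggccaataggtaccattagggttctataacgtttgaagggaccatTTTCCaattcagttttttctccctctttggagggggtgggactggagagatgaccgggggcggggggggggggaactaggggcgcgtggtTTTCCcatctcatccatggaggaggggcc
The core occurs 1 time in the windows of Ror1, Ryk and Camk2d and 3 times in that of Nfatc4, and the 4 printed windows were picked from 10 windows of the 8 genes, of which 6 held it. At 5 letters it is common, and 55.6% of all 32851 promoter windows of this length held it on either strand. The TCF/LEF motif ATCAAAG, bound by the partners of β-catenin, was in none of the windows of these 8 genes, against 3.21% of all promoters. The AP-1 motif TGANTCA was in the Ror2 window alone, against 6.75% of all promoters. GGGCGG, the Sp1 motif, was in 32.7% of all promoters, with 1 match for Ror1, 2 for Ryk, 3 for Camk2d and 1 for Nfatc4. The TATAAA motif occurred 1 time for Ryk and not in the other printed windows, against 12.4% of all promoters. A match is a string of letters, not a bound site.

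By their mean over the 16 cultured libraries, levels ran from Ryk at 56.2 FPKM, through Camk2d at 26.7, Wnt5a at 22.4, Camk2g at 19.0, Nfatc3 at 11.6, Prkca at 3.75 and Ror1 at 1.69, to Plcb4 at 0.521 and Nfatc4 at 0.463. Ror2 was last and was listed in 1 library only. The ranges over the cultured libraries of neighbours in this order overlapped, down to Nfatc4. Within each library, Ryk was above Camk2d and Nfatc3 above Prkca. The 7 genes with a mean of at least 1 FPKM entered the test across 11272 genes. Ror1, with a mean of 3.04 FPKM without bFGF and 0.334 with it, passed that filter only through the libraries without bFGF. It could thus enter only as a gene that differs. Counts of members for bFGF over days 1 to 7 and days 3 to 7, and for the change of its effect, are also given without Ror1.

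Wnt5a transcript fell with bFGF and rose without it. The level was 18.6 FPKM on day 0, and in BM it was 21.8, 34.9, 44.1 and 36.7 on days 1, 3, 5 and 7, with 19.8, 38.4, 46.0 and 40.1 in C. In B it was 14.7, 11.2, 4.02 and 1.93 on the same days, and in BC 13.8, 21.4, 7.59 and 2.60. Compared within a day, the groups with and without bFGF did not overlap on any day, and the lowest levels were those of B and BC on day 7. On day 7 the level was 19.0 times higher in BM than in B and 15.4 times higher in C than in BC, where day 1 ratios were 1.48 and 1.43.

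In the fit of the counts with edgeR's quasi-likelihood test, Wnt5a was lower with bFGF over days 1 to 7 by a log2 fold change of -1.96 ± 0.40 (SE, adjusted p = 0.00121, 8 libraries against 8). The test adjusts over all genes, and the error comes from departures from the model's terms and not from replicate cultures. Over days 3 to 7 the value was -2.50 ± 0.14 (adjusted p = 5.91e-09, 6 libraries against 6), or 5.66-fold lower, and -2.64 without the BC library of day 3. On day 1 it was -0.48 ± 0.23 and did not pass the test (adjusted p = 0.203). The difference between these effects was itself past the threshold, at -2.02 ± 0.27 (adjusted p = 5.38e-05). From day 1 to days 3 to 7, Wnt5a rose without bFGF by 0.93 ± 0.20 on the log2 scale (adjusted p = 0.000991) and changed with bFGF by -1.08 ± 0.19 (adjusted p = 0.000192). It was lower with bFGF in 8 of 8 pairs of libraries that share the day and the CHIR99021 treatment.

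**Figure D1:**
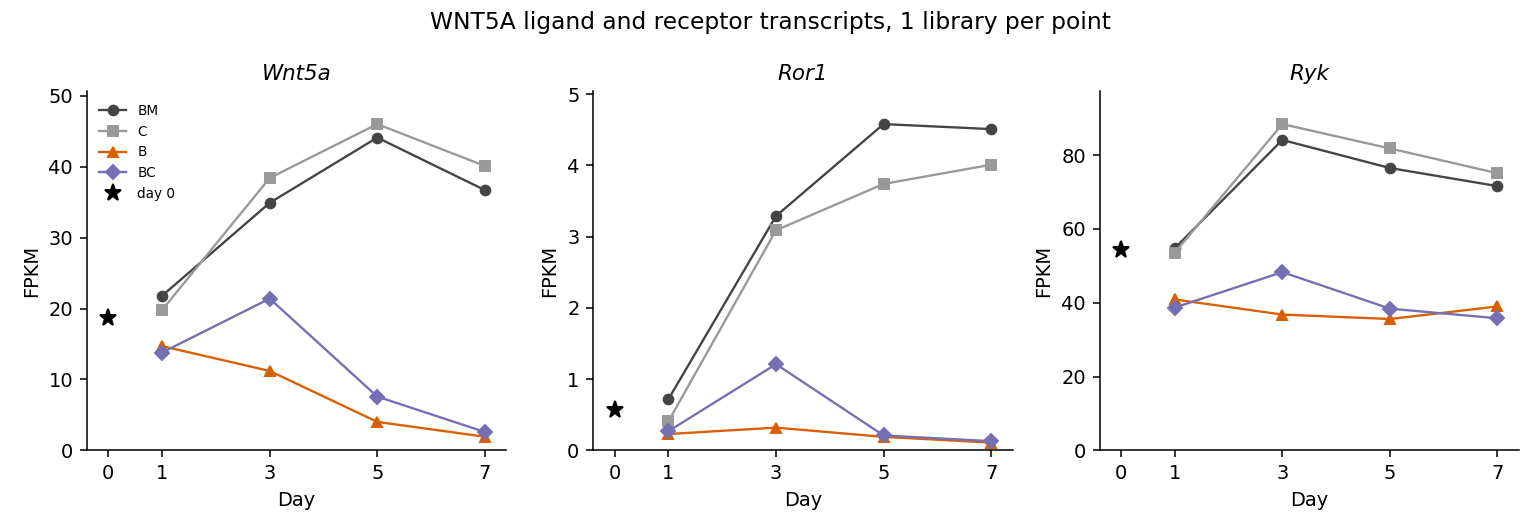
FPKM (y axes, from 0) of Wnt5a, Ror1 and Ryk by day (x axes) in BM, C, B and BC, with the day 0 library as a star, and 1 library per point without error bars. For Wnt5a, the BM and C libraries of days 3 to 7 sit between 34.9 and 46.0 FPKM, above all B and BC libraries, the highest of which is BC on day 3 at 21.4.

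Of the receptor genes, Ryk, which encodes a Wnt-binding receptor with a kinase-like domain that lacks catalytic activity, gave 94.1% to 99.7% of the summed FPKM of Ror1, Ror2 and Ryk in every library. Its level was 54.3 FPKM on day 0, then 54.8, 84.1, 76.5 and 71.6 in BM and 53.6, 88.4, 81.8 and 75.1 in C. With bFGF it was 40.9, 36.8, 35.6 and 39.0 in B and 38.7, 48.3, 38.4 and 35.8 in BC. No library with bFGF reached the level of any library without it, day 1 included. The log2 fold change with bFGF was -0.59 ± 0.09 over days 1 to 7 (adjusted p = 0.000232), -0.37 ± 0.10 on day 1 (adjusted p = 0.0423) and -0.67 ± 0.06 over days 3 to 7 (adjusted p = 3.08e-07). Without composition scaling the last value was -1.03. The day 1 call was lost in 8 of the 16 fits that each left out 1 library, where the value lay between -0.48 and -0.31. Without bFGF the level rose after day 1 by 0.55 ± 0.09 (adjusted p = 0.000107). With bFGF the corresponding value was 0.24 ± 0.09 (adjusted p = 0.0206), but it turned to -0.03 without composition scaling, and in FPKM the B and BC levels of day 7 were below those of day 1.

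Ror1, which encodes a receptor tyrosine kinase-like protein of low or no catalytic activity that binds WNT5A, rose in the media without bFGF. It was at 0.57 FPKM on day 0, and at 0.72, 3.29, 4.58 and 4.51 in BM and 0.41, 3.09, 3.74 and 4.01 in C. In B it was at 0.23, 0.32, 0.19 and 0.11 FPKM and in BC at 0.27, 1.21, 0.21 and 0.13. All libraries with bFGF except BC on day 3 lay under the lowest library without bFGF. The log2 fold change with bFGF was -2.87 ± 0.47 over days 1 to 7 (adjusted p = 0.000396) and -3.47 ± 0.27 over days 3 to 7 (adjusted p = 7.92e-08). That is 11.1-fold lower on days 3 to 7, with -3.90 on the log2 scale without the BC library of day 3 and -1.87 in the limma fit of log2(FPKM + 1), where the pseudocount damps low genes. Ror1 passed the filter only through the libraries without bFGF, so the fit with no filter, over 18700 genes, is given as well. There the value was -2.87 ± 0.45 over days 1 to 7 (adjusted p = 0.000279) and -3.46 ± 0.23 over days 3 to 7 (adjusted p = 1.79e-10). With the filter, the value on day 1 was -1.11 ± 0.51 (adjusted p = 0.191), and the change from day 1 was -2.35 ± 0.62 (adjusted p = 0.00546). With no filter this change was -2.33 ± 0.53 (adjusted p = 0.00165). The rise after day 1 without bFGF was 2.70 ± 0.36 (adjusted p = 2.83e-05), while with bFGF it was 0.35 ± 0.48 (adjusted p = 0.522). Without bFGF, Ror1 exceeded 1 FPKM only on days 3 to 7, so the filter favoured a gene that rises there. With no filter the values were 2.60 ± 0.31 (adjusted p = 1.15e-06) without bFGF and 0.27 ± 0.42 (adjusted p = 0.684) with it.

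Ror2, the other ROR family gene, was not listed in 16 of 17 libraries. It appeared with an expected count of 1 and 0.01 FPKM in C on day 5. No fold change was given for it.

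Plcb4 encodes a phospholipase C-β, the class of enzyme that G proteins of the Gq family activate to make IP3. It was at 0.28 FPKM on day 0, at 0.48, 0.86, 1.11 and 1.21 in BM and at 0.36, 0.57, 0.72 and 0.68 in C. In B it was at 0.44, 0.41, 0.17 and 0.20 FPKM and in BC at 0.38, 0.37, 0.21 and 0.17. The groups overlapped on day 1 and not on days 3 to 7. Since its mean was under 1 FPKM, it was tested only when the filter was dropped, over 18700 genes. There it was lower with bFGF over days 3 to 7 by a log2 fold change of -1.54 ± 0.16 (adjusted p = 7.39e-08), against 0.00 ± 0.26 on day 1, and the change was -1.55 ± 0.31 (adjusted p = 0.000564). Plcb4 made up 1.25% to 5.52% of the summed FPKM of the 4 PLC-β genes, and Plcb3 79.4% to 90.6%.

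Camk2d and Camk2g encode the δ and γ chains of CaMKII, the calcium and calmodulin-dependent kinase. Together they held nearly all CaMKII transcript, with at most 2.97% from Camk2a and 1.75% from Camk2b, the genes of the chains best known from brain. Camk2d was at 21.3 FPKM on day 0, at 26.2, 25.4, 27.1 and 24.6 in BM and at 24.9, 24.5, 25.0 and 23.8 in C. In B it was at 32.1, 36.5, 28.4 and 26.5 FPKM and in BC at 27.9, 28.9, 23.3 and 21.2. B exceeded BM on each day, BC exceeded C on days 1 and 3 only, and the groups overlapped.

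In the counts scaled with TMM, which sets the typical gene at no change, Camk2d was higher with bFGF by 0.42 ± 0.07 over days 1 to 7 (adjusted p = 0.00034) and by 0.47 ± 0.06 over days 3 to 7 (adjusted p = 4.55e-06). Without composition scaling the median gene of days 3 to 7 moved by -0.38 with bFGF, and Camk2d's value was 0.11 and not past the threshold (adjusted p = 0.0674). Its rise is relative to other genes. Over days 1 to 7 the share of calls that were higher with bFGF was 50.5% with TMM and 28.2% without composition scaling.

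Camk2g rose from 12.2 FPKM on day 0 and 15.5 in BM on day 1 to 25.1, 24.1 and 25.6 on days 3, 5 and 7, with 14.0, 18.4, 22.2 and 21.8 in C. In B it was at 13.8, 23.8, 24.4 and 15.2 FPKM and in BC at 12.7, 17.5, 17.6 and 11.9. B was close to BM on days 3 and 5, and both libraries with bFGF fell below the others on day 7. The rise from day 1 to days 3 to 7 was 0.64 ± 0.09 without bFGF (adjusted p = 5.98e-05) and 0.71 ± 0.09 with it (adjusted p = 2.14e-05). The bFGF effect over days 3 to 7 was 0.00 ± 0.06 (adjusted p = 0.993), but -0.36 without composition scaling (adjusted p = 0.000163). On day 7, Camk2g made up 49.4% (BM) and 46.3% (C) of the CaMKII transcripts without bFGF, and 35.6% (B) and 34.9% (BC) with it. The difference was not steady over days. On day 5 the share was 45.6% (BM), 45.5% (C), 45.7% (B) and 42.4% (BC), so B was level with BM. It was 47.7% (BM), 41.4% (C), 38.3% (B) and 36.0% (BC) on day 3, and 36.1%, 35.0%, 29.7% and 30.8% on day 1. This share is a ratio within each library, which scaling between libraries does not touch.

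Prkca encodes protein kinase C α, a conventional calcium-dependent isoform that is also used as a marker of rod bipolar cells. It was at 4.07 FPKM on day 0, at 3.11, 3.09, 3.46 and 3.23 in BM and at 3.40, 4.84, 6.16 and 5.30 in C. In B it was at 4.07, 4.32, 2.47 and 3.70 FPKM and in BC at 3.72, 3.75, 2.57 and 2.78. The highest 3 libraries were those of C on days 3, 5 and 7, and BC did not follow them. The other bipolar markers were at or near 0, with Trpm1 the highest at up to 1.31 FPKM. The bFGF effect over days 3 to 7 was -0.05 ± 0.15 (adjusted p = 0.782), and -0.40 without composition scaling (adjusted p = 0.026). Prkca was 6.35% to 20.3% of the summed FPKM of 4 protein kinase C genes, of which Prkcd, a gene of a calcium-independent isoform, held 61.0% to 87.1%.

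**Figure D2:**
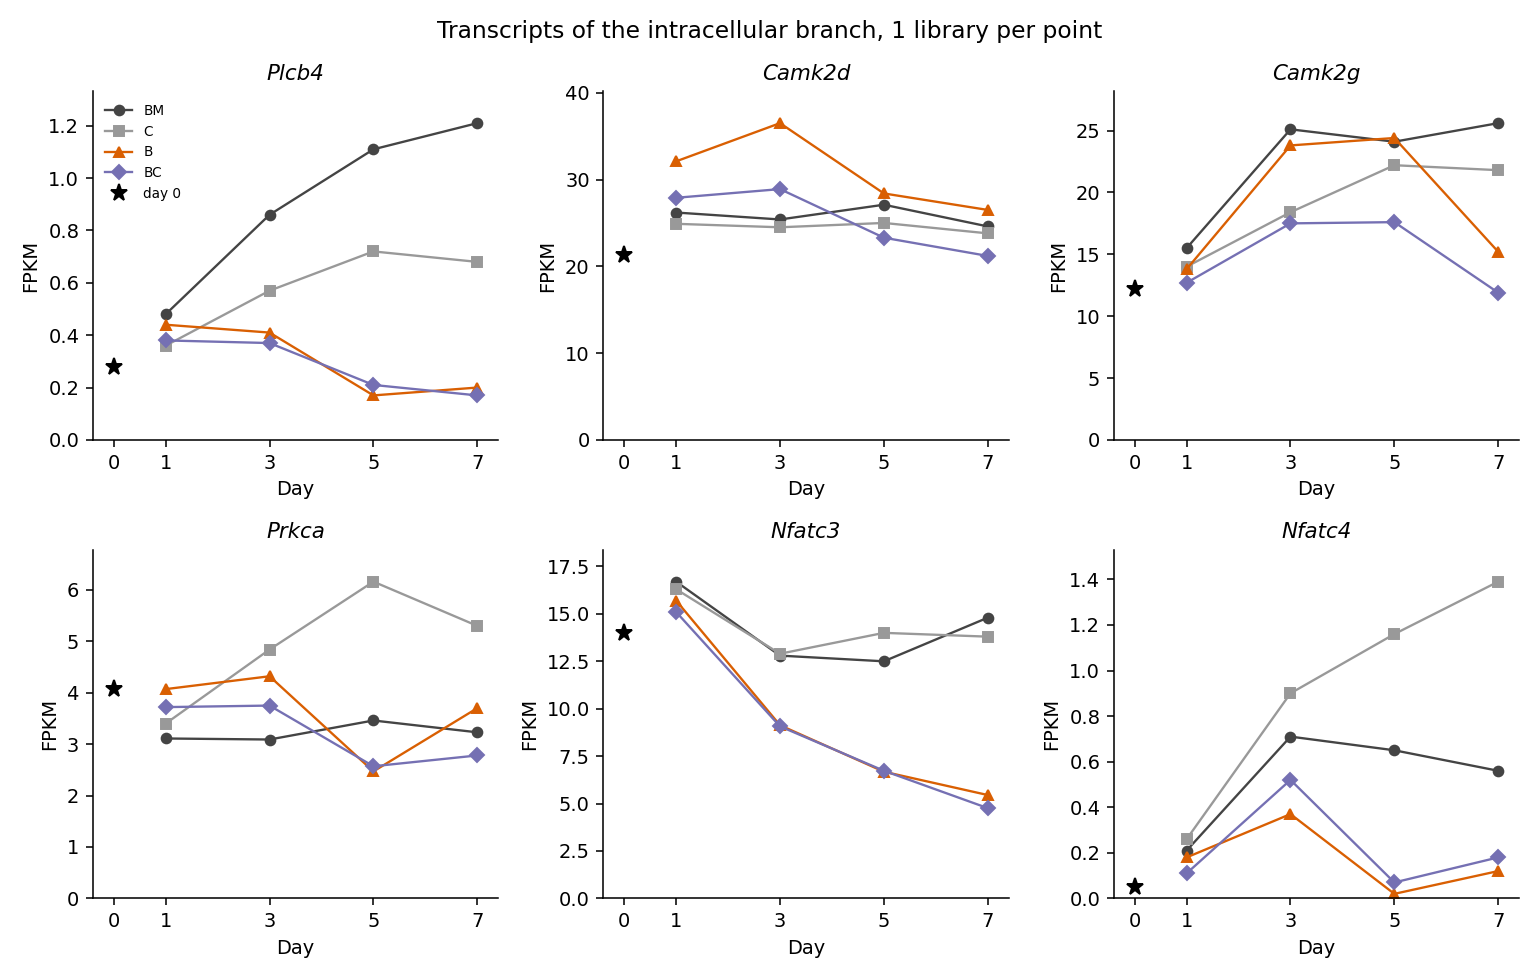
FPKM (y axes, from 0) of Plcb4, Camk2d, Camk2g, Prkca, Nfatc3 and Nfatc4 by day (x axes) in BM, C, B and BC, with the day 0 library as a star, and 1 library per point without error bars. Nfatc3 declines in B and BC to 5.45 and 4.76 FPKM on day 7, while Prkca is highest in C, at 6.16 FPKM on day 5.

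Nfatc3 and Nfatc4 encode calcineurin-dependent NFAT factors. Nfatc3 was at 14.0 FPKM on day 0, at 16.7, 12.8, 12.5 and 14.8 in BM and at 16.3, 12.9, 14.0 and 13.8 in C. With bFGF it fell stepwise, to 15.7, 9.13, 6.68 and 5.45 FPKM in B and 15.1, 9.07, 6.73 and 4.76 in BC. B and BC were close to each other on each day, and from day 3 on lay under all libraries without bFGF. The bFGF effect was -0.02 ± 0.08 on day 1 (adjusted p = 0.894) and -0.63 ± 0.05 over days 3 to 7 (adjusted p = 8.1e-08), or 1.55-fold lower, and -0.99 without composition scaling. The change between them was -0.61 ± 0.10 (adjusted p = 0.000165). After day 1 Nfatc3 fell in both arms, with log2 changes of -0.30 ± 0.07 without bFGF (adjusted p = 0.00156) and -0.91 ± 0.07 with it (adjusted p = 1.06e-07). Its share of the summed FPKM of the 5 NFAT genes started at 49.9% on day 0. By day 7 this share stood at 30.4% (BM) and 31.2% (C) without bFGF, and at 23.4% (B) and 21.8% (BC) with it. The largest share on day 7 was that of Nfat5, a family member that is not regulated by calcineurin, at 56.0% to 67.3%.

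Nfatc4 was low throughout, at 0.05 FPKM on day 0. It reached 0.21, 0.71, 0.65 and 0.56 FPKM in BM and 0.26, 0.90, 1.16 and 1.39 in C. In B it was at 0.18, 0.37, 0.02 and 0.12 FPKM and in BC at 0.11, 0.52, 0.07 and 0.18. C was the highest library on each day, and the levels with bFGF lay under those without it in 8 of 8 pairs. Without the filter on low values, the bFGF effect over days 3 to 7 was -2.28 ± 0.24 (adjusted p = 1.37e-07) and the CHIR99021 effect 0.66 ± 0.20 (adjusted p = 0.0359).

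**Figure D3:**
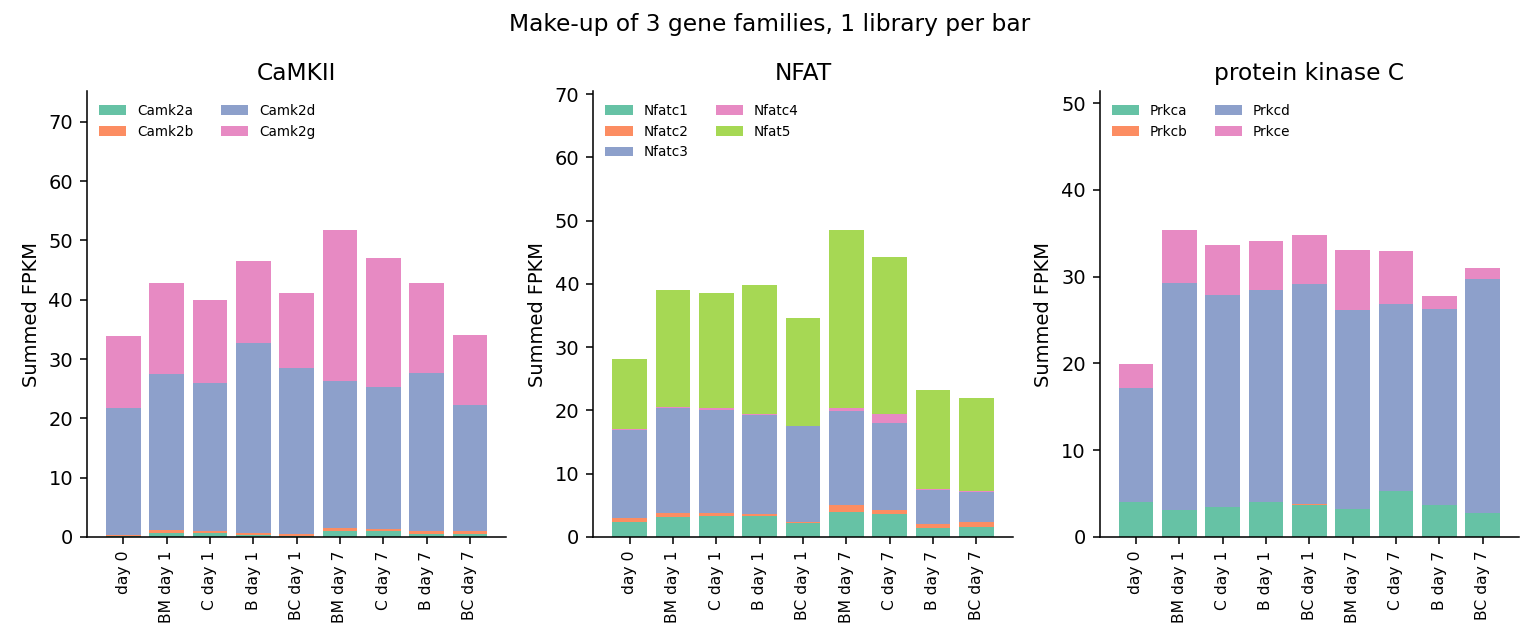
Stacked bars of the summed FPKM (y axes, from 0) of the CaMKII, NFAT and protein kinase C genes on day 0, day 1 and day 7, 1 library per bar. Nfatc3 makes up 49.9% of the NFAT sum on day 0 and, with bFGF on day 7, 23.4% (B) and 21.8% (BC), while Camk2d and Camk2g fill nearly all of the CaMKII bars.

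Of the 7 members tested, 5 were called for bFGF over days 1 to 7, where 68.4% of all genes tested were called. Without Ror1, 1 was higher and 3 lower of 6, against 67.4% of the genes that reached the filter both with and without bFGF. On day 1 the count was 1 of 7 (Ryk), against 10.7% of all genes. Over days 3 to 7 it was again 5 of 7, with 4 lower and 1 higher, against 83.3% of all genes (42.5% lower and 40.8% higher). Without Ror1 it was 4 of 6, against 82.8% of the 10761 genes with a mean of at least 1 FPKM both with and without bFGF. Since most genes responded to bFGF, these counts do not set the members apart. Wnt5a had a lower log2 fold change of days 3 to 7 than 97.5% of the genes tested. Ror1 is not ranked here, since the filter let it enter only as a gene that differs. The other 5 lay inside the range from the 10th to the 90th percentile of all genes, -1.34 to 1.15. With no filter, 58.9% of 18700 genes were called over days 3 to 7, and 7 of the 10 members, which adds Plcb4 and Nfatc4. The FPKM ranges of days 3 to 7 with and without bFGF did not overlap for 4 of the 7 members (Wnt5a, Ror1, Ryk and Nfatc3). Without Ror1 it was 3 of 6. The share of all genes tested was 41.6%, which includes genes that passed the filter through 1 side only. The share without such genes was not computed.

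The effect of bFGF changed from day 1 to days 3 to 7 for 4 of 7 members (Wnt5a, Ror1, Ryk and Nfatc3), all downward, against 62.1% of all genes. Without Ror1 it was 3 of 6, against 61.8% of the genes that reached the filter both with and without bFGF. The Ryk value of -0.31 ± 0.12 (adjusted p = 0.0412) lost its call in 13 of the 16 fits that left out 1 library. Between day 1 and days 3 to 7, 5 of 7 members changed without bFGF, against 71.6% of all genes, and 5 of 7 with bFGF, against 76.2%. Ror1 was among those called without bFGF and not among those called with it. Without bFGF it exceeded 1 FPKM only on days 3 to 7, so the filter favoured that call. Without composition scaling the count with bFGF was 3, beside 2788 higher and 5927 lower of all 11272 genes.

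**Figure D4:**
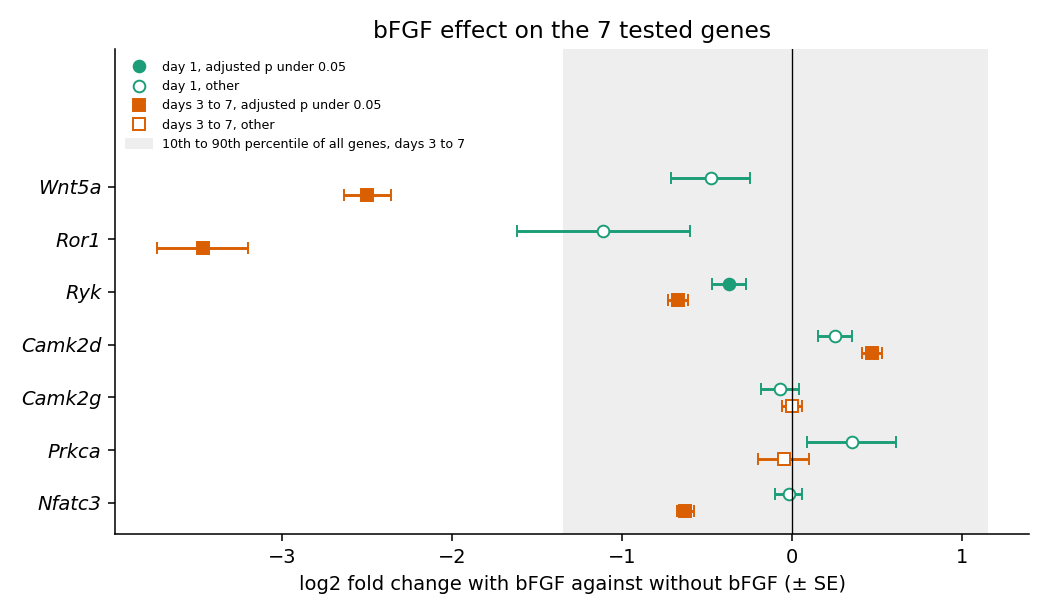
The log2 fold change with bFGF against without bFGF (x axis, ± SE) of the 7 tested genes on day 1 (circles) and days 3 to 7 (squares), filled where the adjusted p was under 0.05, over the range of the 10th to 90th percentile of all genes on days 3 to 7 (grey). Wnt5a at -2.50 lies outside the grey range on days 3 to 7, and the other 5 besides Ror1 lie within it. Ror1, at -3.47, passed the filter only through the libraries without bFGF.

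With CHIR99021, both CaMKII genes were slightly lower. Over days 1 to 7, 2 of 7 members were called for it, against 19.5% of all genes. Camk2g changed by -0.28 ± 0.06 (adjusted p = 0.00524) and Camk2d by -0.17 ± 0.05 (adjusted p = 0.0272), and each was lower with CHIR99021 in 8 of 8 pairs. With additive terms for bFGF, CHIR99021 and day, neither was called, at -0.29 for Camk2g (adjusted p = 0.195) and -0.17 for Camk2d (adjusted p = 0.366). The Camk2d call was also lost when the BC library of day 3, the B library of day 5 or the BC library of day 5 was left out. Wnt5a was higher with CHIR99021 in 6 of 6 pairs of days 3 to 7 and lower in both pairs of day 1, with a log2 fold change of 0.27 ± 0.12 over all days that did not pass the test (adjusted p = 0.128). On day 3 its level in BC was 1.92 times that in B, and on day 7 1.35 times.

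The effect of CHIR99021 differed with and without bFGF for 1 of 7 members, Prkca, against 0.692% of all genes, at -0.76 ± 0.15 (adjusted p = 0.0416). In the libraries without bFGF alone, Prkca was higher with CHIR99021 by 0.60 on the log2 scale (adjusted p = 0.00441). The interaction call was lost in 12 of the 16 fits that left out 1 library, with values from -0.91 to -0.68. Leaving out either of the 2 libraries that share the day and the bFGF treatment gave nearly the same interaction. The library that remains is then fitted exactly by its own term, so these are not 16 separate checks. The same holds for the CHIR99021 effect. For Ror1 the interaction was 1.32 ± 0.32 and did not pass the test (adjusted p = 0.091). It was 0.67 without the BC library of day 3 (adjusted p = 0.345) and 0.67 without the B library of day 3 (adjusted p = 0.335), but was called at 1.60 without the B or the BC library of day 1 (adjusted p = 0.019 and 0.0189), with no filter (1.30, adjusted p = 0.0256), with DESeq2 (1.24, adjusted p = 0.0181) and without day 1 (1.53, adjusted p = 0.021). For Wnt5a it was 0.49 ± 0.19 (adjusted p = 0.284). Without the BC or the B library of day 3 it was 0.29 (adjusted p = 0.528 and 0.518), while it was called at 0.75 without the B or the BC library of day 1 (adjusted p = 0.0106 for each) and at 0.70 without day 1 (adjusted p = 0.0172).

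A further 60 genes of the pathway were followed, of which 50 passed the filter. Over days 3 to 7, 28 of the 50 were lower with bFGF and 16 higher, with a median log2 fold change of -0.21, beside -0.02 over all genes tested. Of all genes, 42.5% were lower and 40.8% higher, 83.3% in all, so the counts for the list and its groups that follow are read against a background in which most genes were called. Of the 50, 4 passed the filter only through the libraries without bFGF (Wnt5b, Fzd3, Celsr1 and Ptk7) and 1 only through those with it (Fzd4), and the direction of these 5 was fixed by the filter. Without them, 24 of 45 were lower and 15 higher, with a median of -0.20. Without composition scaling, 34 of the 50 were lower and 10 higher, beside 6804 lower and 2842 higher of all 11272 genes. The median was then -0.57 beside -0.38. The same background holds for the unscaled group counts that follow. The tested genes of ligands and secretion other than Wnt5b were all lower, 3 of 3, with a median of -1.88. Among them Porcn, the enzyme that attaches the lipid that Wnt proteins need for secretion, went from 2.87 FPKM on day 0 to 242 (BM) and 264 (C) on day 7 without bFGF and to 7.04 (B) and 8.01 (BC) with it, and had the largest change of the list at -4.01 ± 0.07 (adjusted p = 1.59e-12). Cthrc1, whose secreted product stabilises the complex of WNT5A with Frizzled and ROR2, changed by -1.88 ± 0.18. Wnt5b, a close relative of Wnt5a, had a mean of 1.87 FPKM without bFGF and 0.766 with it, a direction that the filter fixed. Wls, the carrier that brings Wnt proteins to the cell surface, was at 190 FPKM in BM and 62.5 in B on day 7.

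The frizzled receptor genes moved in both directions, with 3 lower and 2 higher of the 5 that reached the filter both with and without bFGF. Fzd6 had the largest fall at -2.86 ± 0.10, and from 12.7 FPKM on day 0 it reached 40.7 (BM) and 59.8 (C) on day 7 without bFGF but 1.94 (B) and 3.36 (BC) with it. Fzd8 changed by -2.07 ± 0.09 and Fzd2 by -1.62 ± 0.08. Fzd5 was higher by 1.32 ± 0.06. Fzd4 had a mean of 0.841 FPKM without bFGF and 2.06 with it, a direction that the filter fixed. Of 8 tested genes of G proteins, phospholipase C and IP3 receptors, 5 were lower and 2 higher, where 83.3% of all genes were called. Without composition scaling 6 were lower and 1 higher. Itpr2, which encodes an IP3-gated calcium channel of the endoplasmic reticulum, was the most raised gene of the list at 2.04 ± 0.07, with 13.7 FPKM in B and 4.91 in BM on day 7.

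Among the 10 tested genes of calmodulin, CaMKII and calcineurin, 5 were higher and 3 lower with bFGF, where 83.3% of all genes were called. The median was 0.12, which turned to -0.24 with 1 higher and 5 lower without composition scaling. Rcan2, which encodes a regulator of calcineurin, had the largest rise among them at 1.21 ± 0.12. The other Rcan genes were lower, Rcan1 at -0.45 ± 0.10 and Rcan3 at -0.20 ± 0.08. Of the 2 other protein kinase C genes tested, 1 was higher and 1 lower. NFAT was represented by 2 tested genes, 1 of them lower and none higher (2 lower without composition scaling), and both genes of the TAK1 and NLK branch were lower. Of the 13 genes of planar polarity and JNK that reached the filter both with and without bFGF, 6 were lower and 5 higher, or 84.6% called. Celsr1, an atypical cadherin gene, had a mean of 1.89 FPKM without bFGF and 0.245 with it. Ptk7, a gene of a Wnt co-receptor, was at 2.91 and 0.805 FPKM. The filter fixed the direction of both Celsr1 and Ptk7.

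For CHIR99021, 10 of the 50 genes were called, 4 upward and 6 downward, which is close to the 19.5% of all genes. Cthrc1 was higher by 1.24 ± 0.17 (adjusted p = 0.000814), Celsr1 by 0.63 ± 0.20, Fzd6 by 0.61 ± 0.08 (adjusted p = 0.000658) and Plcb1 by 0.55 ± 0.09. The 6 lower genes were Fzd7 (-0.38), Rhoa (-0.25), Vangl2 (-0.25), Fzd5 (-0.24), Itpr2 (-0.22) and Itpr3 (-0.18). With edgeR, 0 of the 50 passed the test of the interaction after adjustment, against 0.692% of all genes. An unadjusted p under 0.05 was found for 8. The share of all genes at that cut-off was not computed, so nothing is read from this count.

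**Figure D5:**
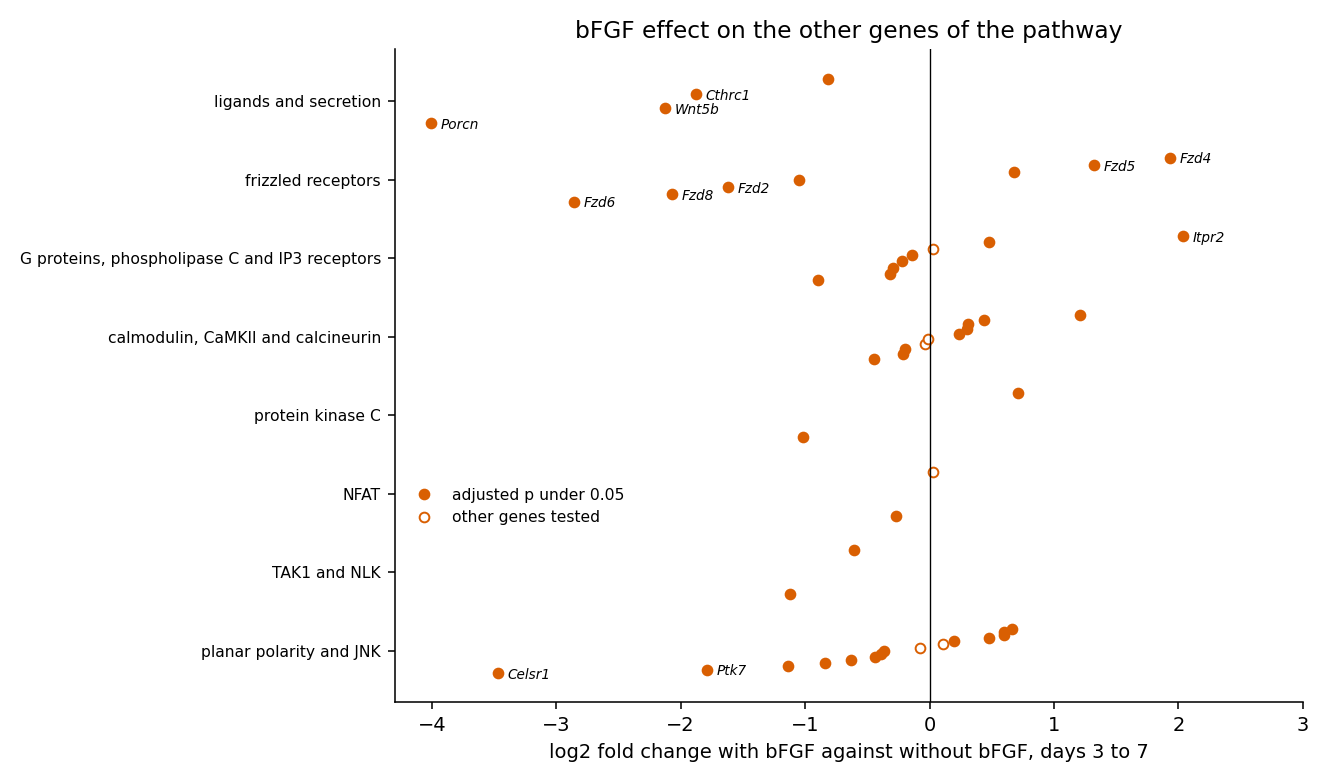
The log2 fold change with bFGF against without bFGF over days 3 to 7 (x axis) of the 50 other pathway genes tested, by group (y axis), filled where the adjusted p was under 0.05. Points with an absolute value of at least 1.25 carry the gene's symbol, with Porcn lowest at -4.01 and Itpr2 highest at 2.04. Wnt5b, Fzd3, Celsr1 and Ptk7 passed the filter only through the libraries without bFGF, and Fzd4 only through those with it. The filter fixed the direction of these points.

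Over all 17 libraries, the 5 genes whose log2(FPKM + 1) was most like that of Wnt5a among 11257 genes were Fzd1 (Pearson r = 0.990), Brf1 (0.988), Tpcn1 (0.987), Ppp6r1 (0.986) and Tmem57 (0.985). Fzd1, a frizzled receptor gene outside the list, ran from 0.18 to 10.2 FPKM. Among the members, the coefficients with Wnt5a were 0.868 for Ryk, 0.837 for Ror1, 0.820 for Plcb4, 0.817 for Nfatc3 and 0.746 for Nfatc4. They were 0.524 for Prkca, 0.418 for Camk2g and -0.0427 for Camk2d. These describe 17 libraries that share treatments and days, and carry no test.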

How the data were processed

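RNA of 17 mNRPC cultures, 1 per treatment and day, was sequenced on BGISEQ-500 after poly-A selection. The authors deposited, per gene and library, an expected count, which need not be whole, and an FPKM value scaled by transcript length and library total. The study's methods name Bowtie 2 and eXpress, whereas the submitters' processing notes name Bowtie2, RSEM and mm10, and the columns have the layout of RSEM, so the program that made the values is uncertain. Genes not listed in a library (listing starts at 0.01 FPKM) were read as 0. Groups, days and treatments came from the sample labels.

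Expected counts were rounded and fitted with edgeR 4.0.16 in R 4.3.3 (TMM, quasi-likelihood test, Benjamini-Hochberg adjustment over all genes tested, threshold 0.05), over genes with a mean of at least 1 FPKM in the 16 cultured libraries. The bFGF effect over days 1 to 7 came from additive terms for bFGF, CHIR99021 and day (biological coefficient of variation 24.7%, 10 residual degrees of freedom). The other effects came from bFGF by day with CHIR99021 as a term (10%, 7), and the interaction from that model with the interaction added (8.79%, 6). Time changes set the mean of days 3, 5 and 7 against day 1. Without replicates, p-values measure departures from these terms and not the spread between cultures, which no value here estimates. Day 0 entered no test.

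Alternatives were DESeq2 1.42.0, its size factors in edgeR, no composition scaling, no filter, offsets per transcript length decile, limma 3.58.1 on log2(FPKM + 1) and log2(FPKM + 0.1), other model terms, and leaving out each library. Python 3.11.15, numpy 2.4.6, pandas 2.3.3 and matplotlib 3.10.9 were used for values and plots. Coordinates and promoters are from RefSeq, GRCm38.p6.

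The members and lists were chosen with earlier results of these data known, and some listed genes are not reported here. Named were all members, the 12 other pathway genes with the largest called bFGF effect over days 3 to 7, those called for CHIR99021 or the interaction, and the 5 genes most like Wnt5a. Wls, Plcb3, Prkcd, Nfat5, Camk2a, Camk2b, Rcan1 and Rcan3 were named after their values were seen.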

Additional observations from a re-analysis of the deposited data

Results flagged for a closer look

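The effect of bFGF differed between day 1 and days 3 to 7, by the test of that difference, for 4 of 7 members, against 62.1% of all genes tested. Without Ror1 it was 3 of 6, against 61.8% of the genes that reached the filter both with and without bFGF. The log2 change of the effect was -2.02 for Wnt5a, -2.35 for Ror1, -0.31 for Ryk and -0.61 for Nfatc3. For Wnt5a, Ror1 and Nfatc3 the call remained in all 16 fits that left out 1 library, with ranges of -2.24 to -1.78, -2.88 to -1.92 and -0.63 to -0.55, and for Ryk in 3 of 16.

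The effect of CHIR99021 on Prkca differed between media with and without bFGF, with an interaction of -0.76 on the log2 scale, since the C libraries of days 3, 5 and 7 were the highest and the BC libraries were not raised. This call was lost in 12 of the 16 fits that left out 1 library, which are not 16 separate checks. Groups of 1 library allowed no check for a sample far from the others.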

How the results depend on the processing

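The direction and call of Wnt5a, Ror1, Ryk and Nfatc3 for bFGF over days 1 to 7 and over days 3 to 7 were the same under all alternatives run. Over both spans 5 of 7 members were called in each fit that left out 1 library. In those fits the number of members called ranged from 0 to 2 for bFGF on day 1, from 3 to 5 for the change of that effect, from 3 to 5 for time with bFGF, from 1 to 2 for CHIR99021 and from 0 to 3 for the interaction. It was 5 for time without bFGF.

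Scaling mattered most for the moderate effects. For time with bFGF, 3 members in place of 5 were called without composition scaling and with limma at either pseudocount. Ryk then turned to -0.03 and, with limma at + 1 and + 0.1, to -0.04 and -0.04, and Camk2d to -0.02, -0.14 and -0.14. The cause was not tested beyond the shift of the median gene that this scaling leaves in place, -0.33 for time with bFGF. For CHIR99021, 0 members were called with additive terms (38 genes called by edgeR in place of 2199) and 0 in the libraries with bFGF alone (549 genes). For the interaction, in place of 1 member and 78 genes, no filter gave 2 members and 224 genes, DESeq2 2 and 244, the fit without day 1 3 and 593, limma at + 1 0 and 1, limma at + 0.1 0 and 0, and additive terms with the interaction 0 and 1. Leaving out 1 library gave 2 to 632 genes there and 145 to 1778 for bFGF on day 1, where the main count was 1203.

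No pairing by replicate was possible because each treatment and day is 1 library, with no replicate number to block on. Libraries of the same day were compared through the terms for day. Depth limits Ror1, Plcb4 and Nfatc4 with bFGF, and the missing replicates limit all p-values.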
